A study of Bos taurus with 129 samples.

Results

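The whole-blood transcriptomes of cattle with bovine respiratory disease (BRD) were compared with those of cattle that stayed healthy, on day 13 after arrival. The comparison holds the 25 libraries of the series that were drawn on day 13, chosen by the day in the library name, while 26 libraries were drawn on each of the other days (0, 28, 45 and 60). The 25 libraries come from 25 animals, 14 labelled as diseased (BRD) and 11 labelled as not diseased (healthy). The animals were crossbred beef steers that had been bought and transported together, and vaccinated against respiratory viruses and given doramectin at arrival (day 0). Each was placed on 1 of 3 trace mineral supplements. INR cattle were fed copper, cobalt, manganese and zinc as sulfates. AAC cattle were fed copper, manganese and zinc complexed with amino acids, and cobalt as glucoheptonate. COMBO cattle were fed as AAC cattle and were also drenched with trace minerals before shipment, on day 0 and at any treatment for illness. All 3 supplements were pooled here, with the supplement as a covariate. The BRD cattle were 4 AAC, 3 COMBO and 7 INR animals, and the healthy cattle were 3 AAC, 4 COMBO and 4 INR animals. A healthy animal was never diagnosed with or treated for clinical BRD up to day 60. The day on which a BRD animal fell ill or was treated is not given in the sources used here, so a BRD library of day 13 may come from before, during or after the illness.

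BRD is the pneumonia complex of newly received beef cattle, in which stress and respiratory viruses are followed by bacteria of the upper airway reaching the lung. Blood carries the cells that respond to it. Neutrophils and monocytes take up and kill bacteria, T, B and natural killer (NK) cells recognize antigen or infected cells, and type I interferon switches on a broad antiviral gene programme in nearly all of them. Cattle also carry many gamma-delta T cells, a class of T cell marked in this species by the WC1 family of surface receptors. In a bulk sample such as this one, fewer cells of a type and less RNA in each cell cannot be told apart.

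Counts per library totalled 34928094 to 54306034 in BRD cattle (median 40392847) and 31613545 to 51136446 in healthy cattle (median 42980606). The 10 most abundant genes took 4.43 to 11.6% of the counts in BRD cattle and 4.67 to 6.12% in healthy cattle, and the highest shares were those of BRD animals 21 and 41, whose globin transcripts were high. Markers of neutrophils (CXCR2, S100A8), monocytes, B, T and NK cells, platelets and red cell precursors were detected in every library, and genes of connective tissue stood apart in 2 of them. COL1A1, a chain of type I collagen, reached 2546 CPM (counts per 1000000 counts of the library) in healthy animal 50 and 1258 CPM in BRD animal 21, against a median of 4.64 CPM over the 25 libraries. Libraries were also correlated after the mean of each disease, supplement and day group was subtracted. By that measure the best match on another day was the same animal for each of the 25 libraries. In COMBO cattle, pen 5 held all healthy animals and pen 6 all BRD animals, so disease and pen cannot be told apart there. In INR cattle, pen 7 held 4 of the 7 BRD animals and no healthy animal, so disease and pen are partly tied there too.

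No gene differed between BRD and healthy cattle at a false discovery rate (FDR) below 0.10 (0% of 16174 genes tested, edgeR quasi-likelihood test with Benjamini-Hochberg adjustment). At an unadjusted p below 0.05 there were 536 genes, or 3.31% of those tested, of which 224 (1.38%) were higher and 312 (1.93%) were lower in BRD cattle. The smallest unadjusted p was 0.000102, and the smallest FDR was 1. DESeq2 called 2 genes on the same libraries, MFSD2B higher and PLXNA1 lower in BRD cattle, both with an adjusted p of 0.0694, and limma-voom called 0 genes, with 510 at an unadjusted p below 0.05. No gene separated the groups completely: 0 genes had all BRD libraries below, and 0 had all BRD libraries above, all healthy libraries. The median log2 fold change over all genes was -0.001, and 49.6% of genes had a fold change above 0.

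The precision behind these values was as follows. The biological coefficient of variation between animals was 37.2%, and the median standard error (SE) of a log2 fold change was 0.138. For 14274 genes (88.3%) the 95% interval of the BRD to healthy difference lay within 1 on the log2 scale in both directions, and for 10127 genes (62.6%) it lay within 0.5. The first 4 principal components carried 22.1%, 12.4%, 6.9% and 6.08% of the variance among the 25 libraries, and on each of them the BRD and healthy libraries overlapped.

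The genes of smallest p, leaving out loci without a gene symbol, are described next by their values, and none of them was called. Because they were picked by p in these same libraries, counts of BRD libraries past a healthy value only describe them and are no further evidence. The same holds for the list members named below for their small p. Among those lower in BRD cattle, PLXNA1, which encodes plexin A1, a receptor for semaphorin guidance signals, was at 7.34, 11.6 and 16.6 CPM (lowest, median and highest) in BRD cattle and at 10.3, 17.1 and 23.7 CPM in healthy cattle. Of the 14 BRD libraries, 0 reached the healthy median, though the ranges overlapped. The log2 fold change was -0.59 (SE 0.13, 95% interval -0.85 to -0.33, unadjusted p = 0.000102), and it stayed between -0.66 and -0.53 over the 25 fits that each left out a different animal. ST6GAL1, the enzyme that adds alpha-2,6-linked sialic acid to glycoproteins, was at 115.7, 148.6 and 200.2 CPM in BRD cattle and at 158.1, 188.6 and 235.1 CPM in healthy cattle, a log2 fold change of -0.35 (SE 0.09, unadjusted p = 0.000478). In BRD cattle 8 of 14 libraries lay under the lowest healthy library.

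SLC9B2, a sodium-proton exchanger, was at 21.2, 32.9 and 57.7 CPM in BRD cattle and at 20.8, 44.35 and 112.3 CPM in healthy cattle (log2 fold change -0.68, SE 0.20). ADA2, a secreted adenosine deaminase made by monocytes and macrophages, was at 55.9, 79.6 and 102.3 CPM against 66.8, 95.7 and 146.6 CPM (-0.33, SE 0.10), and only 1 BRD library exceeded the healthy median. KLF5, a transcription factor, was at 11.4, 15.9 and 25.9 CPM against 14.1, 20.2 and 61.6 CPM (-0.68, SE 0.20), with the highest value in healthy animal 10. For all 3 genes the ranges of the groups overlapped.

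The other genes of the lower set were GGACT (log2 fold change -0.34), PLPBP (-0.26), EEF2K, the kinase of translation elongation factor 2 (-0.18), PGM2, a phosphoglucomutase (-0.28), and MAN1A2, a mannosidase that trims N-glycans (-1.85, SE 0.49). For PLPBP, EEF2K and PGM2, 0 of the 14 BRD libraries exceeded the healthy median. MAN1A2 was near the detection limit in both groups, at 0.0557 to 2.08 CPM in BRD cattle and 0.0791 to 6.45 CPM in healthy cattle.

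Among the genes higher in BRD cattle, PDE2A, a phosphodiesterase that breaks down cyclic AMP and cyclic GMP, was at 12.34, 26.4 and 85 CPM in BRD cattle and at 8.58, 15.295 and 25.53 CPM in healthy cattle. In BRD cattle 13 of 14 libraries exceeded the healthy median and 7 exceeded every healthy library, with BRD animal 16 the highest. The log2 fold change was 1.02 (SE 0.24, 95% interval 0.52 to 1.52, unadjusted p = 0.000332), and it was 0.81 without animal 16. SLC38A5, a transporter of glutamine and other neutral amino acids, was at 5.99, 11.29 and 20.2 CPM against 7.04, 8.20 and 13.7 CPM (0.53, SE 0.14). DEPDC7 was at 2.32, 2.85 and 4.29 CPM against 1.75, 2.15 and 2.84 CPM (0.44, SE 0.12), and all 14 BRD libraries exceeded the healthy median.

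ITGA3, the alpha chain of a laminin-binding integrin, was at 2.93, 5.00 and 7.91 CPM in BRD cattle and at 2.15, 3.57 and 5.25 CPM in healthy cattle (log2 fold change 0.54, SE 0.16). MFSD2B, an exporter of sphingosine-1-phosphate in red cells and platelets, had low counts, at 0.0825, 0.416 and 2.77 CPM against 0, 0.191 and 0.532 CPM (2.08, SE 0.48). SMIM32 (0.60) and KLHL32 (0.50) were likewise under 3 CPM in every library. KLK1, a tissue kallikrein, was at 0.513, 0.979 and 14.8 CPM in BRD cattle and at 0.234, 0.745 and 1.26 CPM in healthy cattle (1.80, SE 0.52, and 1.31 without BRD animal 9). Of the BRD libraries 6 exceeded the healthy range while the medians were close. IGLL1, an immunoglobulin lambda-like gene, ranged from 1.35 to 327 CPM in BRD cattle and from 1.15 to 30.4 CPM in healthy cattle (2.59, SE 0.78). Its sequence resembles that of the lambda constant genes, so its counts are uncertain.

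**Figure D1:**
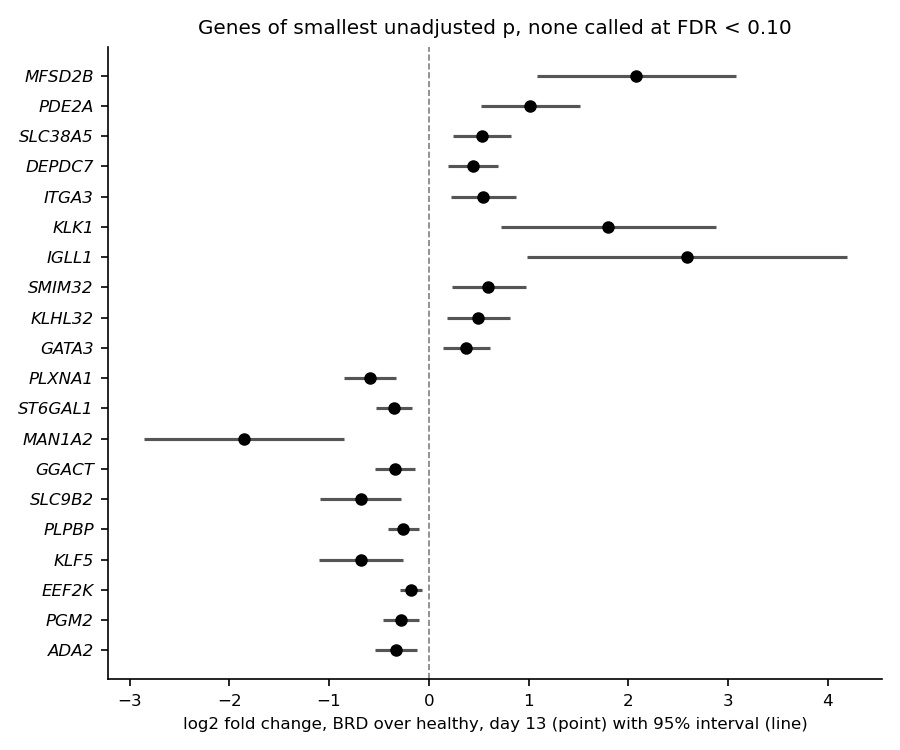
Log2 fold change of BRD over healthy cattle on day 13 (horizontal axis) for the 10 named genes of smallest unadjusted p in each direction, with 95% intervals as lines. The intervals clear 0 because the genes were picked by p, and none passed the FDR threshold; the widest are those of the low or patchy genes IGLL1, KLK1, MFSD2B and MAN1A2.

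The libraries of the same animals on the other days were fitted in the same way, each day alone, for values side by side. There were 0 genes called on day 0 (0%, with 5.1% at an unadjusted p below 0.05), 0 on day 28 (0%, 8.87%), 0 on day 45 (0%, 2.94%) and 0 on day 60 (0%, 2.07%). The day 13 share of 3.31% thus lay between those of the other days, and the smallest FDR of any day was 0.172, on day 28. The disease by day term, which tests whether the BRD to healthy difference on day 13 differed from that on day 0 with animal as a block, called 0 of 16281 genes (0%, 2.09% at an unadjusted p below 0.05) over 25 animals.

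Several of the day 13 genes had a difference of the same sign and like size already at arrival. The log2 fold change of PLXNA1 was -0.39 on day 0, -0.59 on day 13, -0.65 on day 28, -0.39 on day 45 and -0.40 on day 60. ST6GAL1 lay between -0.40 and -0.35 on all 5 days, SLC9B2 between -0.86 and -0.68, KLK1 between 1.73 and 1.82, and ITGA3 between 0.46 and 0.58. Because the animals are the same on each day, these are not independent observations of the difference.

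PDE2A and MAN1A2 differed from that pattern. PDE2A had log2 fold changes of -0.18 on day 0, 0.08 on day 28, 0.11 on day 45 and 0.10 on day 60 beside 1.02 on day 13, and its disease by day term had an unadjusted p of 0.00417 (edgeR). MAN1A2 was at 0.03 on day 0, 0.36 on day 28, -0.10 on day 45 and -0.45 on day 60 beside -1.85 on day 13 (unadjusted p of the term 0.0198, edgeR). Neither term passed the FDR threshold, so a difference between the days was not shown for either gene.

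**Figure D2:**
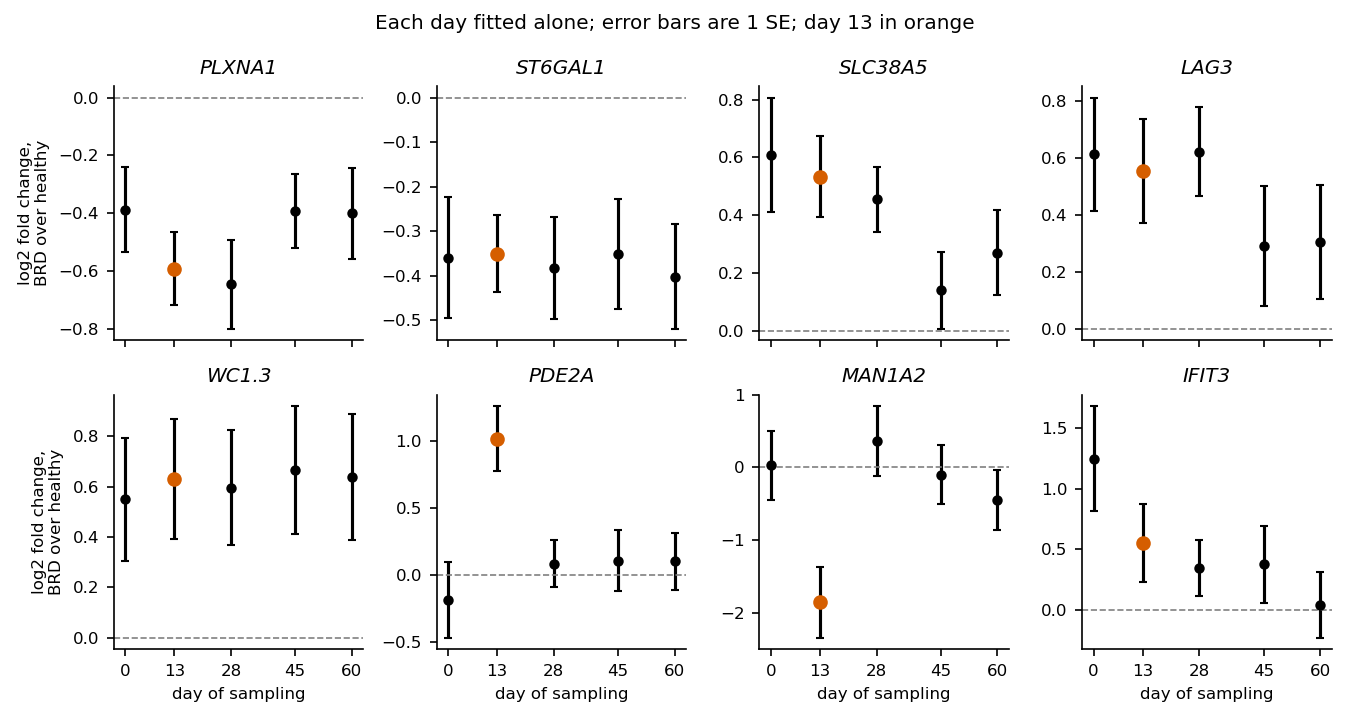
Log2 fold change of BRD over healthy cattle (vertical axis) on each sampling day (horizontal axis, days), each day fitted alone, with bars of 1 SE and day 13 in orange. PLXNA1, ST6GAL1, LAG3 and WC1.3 keep 1 sign on all 5 days, whereas PDE2A and MAN1A2 are farthest from 0 on day 13 and IFIT3 is largest on day 0.

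The cell type and pathway lists are described by how many of their tested members had an unadjusted p below 0.05, read against the 1.38% (higher) and 1.93% (lower) of all genes, and by the median log2 fold change of their members, read against -0.001 for all genes. No member of any list was called at an FDR below 0.10. The BRD to healthy difference was also estimated within each supplement, and members of a list whose disease by supplement terms, which test whether the difference varied with the supplement, had an unadjusted p below 0.05 are counted and read against 15.2% of all genes (0% called at an FDR below 0.10). Each replicate is 1 animal, so the p-values measure the spread between animals.

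Genes of T cells sat slightly above the healthy level in BRD cattle. Of 23 alpha-beta T cell and naive markers, 22 had a log2 fold change above 0, the median was 0.14, and 4 were higher at an unadjusted p below 0.05. ZAP70, the kinase bound to the T cell receptor, was at 328, 376 and 476 CPM in BRD cattle and at 243, 305 and 445 CPM in healthy cattle, with all 14 BRD libraries above the healthy median (log2 fold change 0.28, SE 0.09, unadjusted p = 0.00615). CD247, the zeta chain of that receptor, was at 150, 276 and 379 CPM against 159, 191 and 342 CPM (0.33, SE 0.15), and CD27, a costimulatory receptor, was at 4.09, 17.1 and 50.9 CPM against 3.39, 7.65 and 21.1 CPM (1.20, SE 0.43). IL7R, the interleukin-7 receptor of naive and memory T cells, was the 4th (0.31, SE 0.14). The co-receptor gene CD4 (0.31, SE 0.22) and the receptor subunit CD3E (0.22, SE 0.16) lay on the same side with intervals that included 0. The median of the list was 0.36 in AAC, 0.23 in INR and -0.31 in COMBO cattle, and without healthy animal 50 the pooled median was 0.10, with 2 members at that p. Of the 23 genes, 3 (13%) had disease by supplement terms at an unadjusted p below 0.05.

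Of 10 gamma-delta T cell genes tested, all 10 had a fold change above 0 with supplements pooled, the median was 0.26, and 4 were higher at an unadjusted p below 0.05. The median was 0.64 in AAC cattle, with 9 of the 10 above 0, 0.17 in INR cattle, with 8, and 0.04 in COMBO cattle, with 6. Disease by supplement terms had an unadjusted p below 0.05 for 2 of the 10 (20%). GATA3, a transcription factor expressed in bovine gamma-delta T cells and in type 2 helper T cells, was at 50.7, 67 and 95.5 CPM in BRD cattle and at 40.4, 53.2 and 75.4 CPM in healthy cattle, and 13 of 14 BRD libraries exceeded the healthy median (log2 fold change 0.37, SE 0.11, unadjusted p = 0.00334). WC1.3, a member of the WC1 receptor family, was at 116.6, 218.1 and 502.9 CPM against 59.201, 149.8 and 339.6 CPM (0.63, SE 0.24), and on the other days it lay between 0.55 and 0.67. WC1-12 was at 0.36 (SE 0.16). The WC1 genes are near-identical copies, so the split of reads between them is uncertain. BLK, a kinase of B cells and of some gamma-delta T cells, was at 0.41 (SE 0.16) and stands in both the gamma-delta and the B cell lists.

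Of 16 regulatory T cell and checkpoint genes, 13 had a fold change above 0 and the median was 0.15. LAG3, an inhibitory receptor of activated T cells, was at 19.7, 37.33 and 55.5 CPM in BRD cattle and at 14.8, 24.8 and 36.8 CPM in healthy cattle, with 12 of 14 BRD libraries above the healthy median and 7 above every healthy library (log2 fold change 0.55, SE 0.18, unadjusted p = 0.00554). FOXP3, the defining transcription factor of regulatory T cells, was at 6.58, 9.62 and 12.9 CPM against 4.26, 7.85 and 10.7 CPM (0.35, SE 0.15), and TNFRSF18, also called GITR, was at 0.30 (SE 0.15). On day 0 LAG3 lay at 0.61, and on day 28 at 0.62. The number of members at an unadjusted p below 0.05 was 2 with all libraries, 1 without healthy animal 50 and 4 without BRD animals 21 and 41.

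Genes of monocytes lay slightly below the healthy level with all supplements pooled. Of 20 monocyte markers, 5 had a fold change above 0, the median was -0.19, and 4 were lower at an unadjusted p below 0.05. CD163, the monocyte and macrophage receptor that clears haptoglobin-hemoglobin complexes, was at 26.9, 49.2 and 74.8 CPM in BRD cattle and at 40.28, 78.1 and 107.66 CPM in healthy cattle, and 0 of 14 BRD libraries exceeded the healthy median (log2 fold change -0.55, SE 0.18, unadjusted p = 0.0045). The 3 others were LPL, lipoprotein lipase (-0.77, SE 0.27), MRC1, the macrophage mannose receptor (-0.59, SE 0.21), and CCR2, the chemokine receptor of classical monocytes (-0.62, SE 0.25). CD14, the lipopolysaccharide co-receptor and the usual monocyte marker, had a smaller value with an interval that included 0 (-0.26, SE 0.16, 95% interval -0.59 to 0.07). The median of the list was -0.29 in INR and -0.47 in COMBO cattle but 0.16 in AAC cattle, where 14 of the 20 genes had a fold change above 0. Of the 20 genes, 3 (15%) had disease by supplement terms at an unadjusted p below 0.05.

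Among 17 genes of MHC class II presentation, 2 had a fold change above 0 and the median was -0.14. By supplement the median was -0.28 in AAC cattle, with 3 genes above 0, -0.04 in INR cattle, with 7, and -0.08 in COMBO cattle, with 8. Of the 17 genes, 3 (17.6%) had disease by supplement terms at an unadjusted p below 0.05. CD1E, which loads lipid antigens and is carried by dendritic cells, was at 0.816, 3.51 and 8.55 CPM in BRD cattle and at 1.95, 7.58 and 13.4 CPM in healthy cattle (log2 fold change -1.03, SE 0.35, unadjusted p = 0.0066), but its value was 0.73 in AAC cattle against -1.59 in INR and -1.67 in COMBO cattle. CTSS, a protease that trims the invariant chain (-0.15, SE 0.08), and BOLA-DRB3, a class II beta chain (-0.18, SE 0.10), had intervals that included 0. Among 18 Toll-like receptors and adaptors, TLR10 was at 1.62, 7.11 and 15.1 CPM against 0.879, 19 and 46.39 CPM (-1.33, SE 0.49), with 0 of 14 BRD libraries above the healthy median. TLR5, the flagellin receptor, was at -0.26 (SE 0.19).

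**Figure D3:**
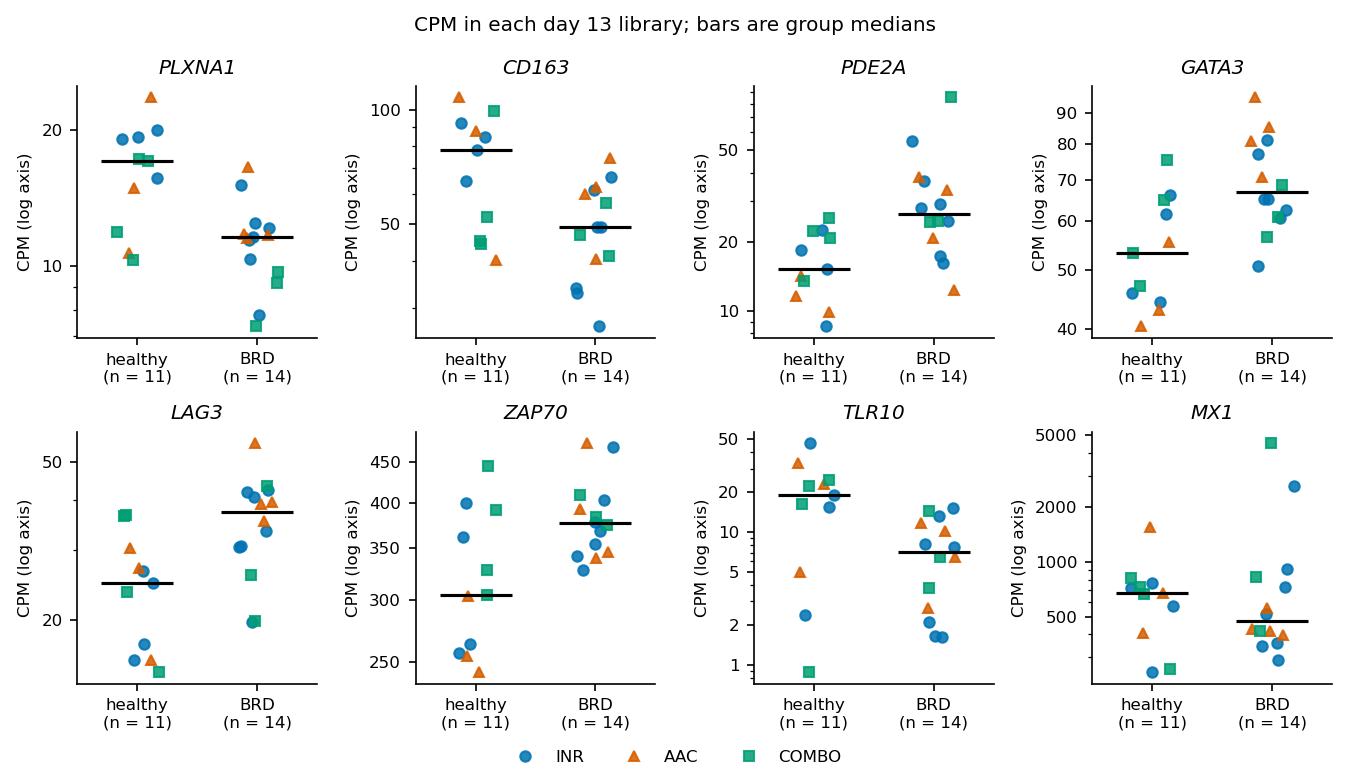
CPM on a log axis in each day 13 library for 8 genes, in healthy (n = 11) and BRD cattle (n = 14), with shape and colour for the supplement and a bar at each group's median. The medians differ in all 8 panels, the groups overlap in all 8, and for MX1 the BRD median lies below the healthy one although 2 BRD animals are the highest.

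The antiviral programme was highest in 2 BRD animals. Of 38 type I interferon-stimulated genes, 36 had a fold change above 0 and the median was 0.35, yet 0 had an unadjusted p below 0.05. The median was 0.998 in COMBO, 0.36 in INR and -0.36 in AAC cattle, and 2 of the 38 (5.26%) had disease by supplement terms at an unadjusted p below 0.05. MX1, an interferon-induced GTPase that blocks virus replication, was at 288, 474 and 4513 CPM in BRD cattle and at 246, 674 and 1560 CPM in healthy cattle, so its fitted fold change was positive (log2 0.42, SE 0.45) while its BRD median was the lower. BRD animals 16 (COMBO, 4513 CPM) and 17 (INR, 2620 CPM) held the highest values, and the other 12 BRD libraries lay at 911 CPM or below. ISG15, a ubiquitin-like antiviral protein, was likewise at 1347 CPM in animal 16 and at 669 CPM in animal 17, beside group medians of 91.8 CPM in BRD and 84.6 CPM in healthy cattle.

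Without animals 16 and 17, left out because they were the highest, the median of the 38 genes was -0.17, and 6 of them had a fold change above 0. Such a choice lowers the BRD values by itself, and healthy animal 49, which had the highest healthy list score (0.65), was kept. The 3 members of smallest p were IFIT3 (log2 fold change 0.55, SE 0.32, unadjusted p = 0.1), IRF9, a subunit of the factor that carries the interferon signal (0.57, SE 0.34), and HERC6 (0.51, SE 0.35). On arrival the fold change of IFIT3 was 1.25 (SE 0.43), and by day 60 it was 0.04 (SE 0.27).

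Among 18 interferon-gamma response genes the median was 0.06. IFNGR2, a chain of the interferon-gamma receptor, ranged from 2.8 to 101.7 CPM in BRD cattle (median 57.2) and from 3.56 to 63 CPM in healthy cattle (median 12.6), a log2 fold change of 1.49 (SE 0.62, unadjusted p = 0.0239). Its value was 3.15 in AAC, 1.49 in INR and -0.15 in COMBO cattle, and within each group some animals were at under 10 CPM and others at over 40 CPM. SOCS1, a feedback inhibitor of interferon signalling, was at 0.48 (SE 0.25), and GBP4 at 0.40 (SE 0.30). Of 21 genes of cytokine and STAT signalling, STAT4 was at 0.19 (SE 0.09) and CISH at 0.18 (SE 0.11). The median of that list was 0.24 in AAC, -0.01 in INR and -0.08 in COMBO cattle, and 5 of its members (23.8%) had disease by supplement terms at an unadjusted p below 0.05.

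Pooled over supplements, neutrophil genes had medians near 0, and the supplements differed in sign. Of 23 granule protein genes, 7 had a fold change above 0 and the median was -0.09. Their median was 0.29 in AAC cattle, with 16 of the 23 above 0, -0.09 in INR cattle and -0.61 in COMBO cattle, with 3 above 0, and 6 of them (26.1%) had disease by supplement terms at an unadjusted p below 0.05. CHI3L1, a chitinase-like granule protein, was at 19.3, 44.8 and 70.7 CPM in BRD cattle and at 28.1, 65.1 and 132 CPM in healthy cattle (log2 fold change -0.50, SE 0.22). CYBB, the catalytic subunit of the phagocyte oxidase, was at -0.63 (SE 0.32), and ITGAM, an adhesion integrin, at -0.47 (SE 0.26). Of 14 alarmin and chemotaxis genes the median was 0.04, with 0.40 in AAC, 0.09 in INR and -0.29 in COMBO cattle, and 1 of them (7.14%) had disease by supplement terms at that p. The chemokine CXCL5 was at 0.939, 1.67 and 5.04 CPM against 0.963, 1.36 and 2.50 CPM (0.66, SE 0.26), its receptor CXCR2 at 59.1, 74.7 and 198 CPM against 15.7, 65.5 and 127.1 CPM (0.61, SE 0.29), and the related chemokine CXCL8 at 0.56 (SE 0.38).

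The alarmins S100A8 (log2 fold change -0.06, SE 0.18) and S100A12 (0.03, SE 0.18) had intervals of -0.43 to 0.32 and -0.34 to 0.39. Of the 7 cathelicidin genes in the table, which encode antimicrobial peptides stored in neutrophil granules, 0 had enough counts to be tested.

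Inflammatory mediators had pooled medians near 0, which for some of them held supplements of opposite sign. The pooled median was -0.08 over 18 genes of the interleukin-1 family and inflammasome, 0.002 over 24 genes of TNF and NF-kB feedback, and -0.02 over 19 lipid mediator enzymes. For the interleukin-1 list it was 0.44 in AAC, -0.46 in INR and -0.14 in COMBO cattle, with 4 of 18 members (22.2%) having disease by supplement terms at an unadjusted p below 0.05. For the lipid mediator enzymes it was 0.49, -0.16 and -0.35 in the same order, with 4 of 19 (21.1%) at that p, and for the TNF list -0.05, 0.03 and -0.05, with 4 of 24 (16.7%). In the first list, the pore-forming GSDME was at -0.66 (SE 0.28), the inflammasome sensor NLRC4 at -0.35 (SE 0.19) and the receptor IL1R1 at -0.35 (SE 0.23). TNFAIP6 (-0.43, SE 0.26), TNFAIP2 (-0.20, SE 0.21) and TRAF1 (0.12, SE 0.10) had the smallest p in the TNF list, and none of its 24 members had an unadjusted p below 0.05. Of the lipid mediator enzymes, PTGR2, a prostaglandin reductase, was at -0.14 (SE 0.06), the prostaglandin D synthase HPGDS at 0.53 (SE 0.27) and the lipoxygenase ALOX12 at -0.26 (SE 0.18).

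Genes of eosinophils and basophils had a pooled median of -0.04 over 13 genes. It was 0.70 in AAC cattle, with 12 of the 13 above 0, -0.13 in INR cattle and -0.53 in COMBO cattle, with 1 above 0, and 4 of the 13 (30.8%) had disease by supplement terms at an unadjusted p below 0.05. IL5RA, the eosinophil growth factor receptor, ranged from 1.68 to 19.8 CPM in BRD cattle and from 1.66 to 42 CPM in healthy cattle (log2 fold change -0.54, SE 0.42). ALOX15 was at -0.45 (SE 0.58) and HRH4, a histamine receptor, at 0.15 (SE 0.21). Among 21 platelet genes, PPBP, a platelet chemokine precursor, was at 9.88, 24.9 and 110.6 CPM in BRD cattle and at 9.72, 19.2 and 25.3 CPM in healthy cattle, with 7 of 14 BRD libraries above every healthy library (1.06, SE 0.33, unadjusted p = 0.00344). The list as a whole had a median of 0.03. It shares SPARC with the connective tissue genes described below, and TREML1, a receptor of platelet granules, was at 0.71 (SE 0.47).

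The 12 connective tissue genes had a median of -2.86, with 6 lower at an unadjusted p below 0.05. The size of that median rested on 1 library, while the count of 6 also changed when other libraries were left out. Without healthy animal 50 the median was 0.07 and 0 of the genes were lower at that level. Without BRD animals 16 and 17 the median was -2.57 and again 0 were lower, and without BRD animals 21 and 41 it was -3.01, with 10 of the 11 genes then tested lower. COL1A1 had a log2 fold change of -4.42 (SE 1.96), 0.14 without that animal, and COL3A1 and SPARC lay at -4.47 (SE 2.04) and -3.30 (SE 1.54). Where these transcripts came from was not tested.

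Metabolic and cell cycle genes gave small pooled values. With supplements pooled, all 28 cell cycle and proliferation genes had a fold change above 0, with a median of 0.17 and a highest value of 0.33, but 0 had an unadjusted p below 0.05; PCNA, the sliding clamp of DNA replication, was at 0.19 (SE 0.11), the helicase subunit MCM4 at 0.19 (SE 0.13) and the mitotic cyclin CCNB2 at 0.29 (SE 0.20). The median was 0.40 in INR cattle, with 27 of the 28 above 0, 0.01 in AAC cattle, with 15, and -0.03 in COMBO cattle, with 12, and 0 of the 28 had disease by supplement terms at an unadjusted p below 0.05. The genes of such a list are not independent of each other. Without BRD animals 21 and 41 the median was 0.25 and 2 were higher at that p. The median was -0.01 over 22 glycolysis genes, where PGAM1 (-0.10), PFKP (0.10) and ALDOA (0.09) had the smallest p, and 0.04 over 21 fatty acid oxidation genes. SLC27A2, a fatty acid transporter, was at 0.39, 0.686 and 1.09 CPM in BRD cattle and at 0.195, 0.409 and 0.983 CPM in healthy cattle (0.66, SE 0.23), and ACSL1 (-0.08) and ANGPTL4 (0.22) followed. The glycolysis median was 0.15 in AAC, 0.025 in INR and -0.23 in COMBO cattle, and 3 of the 22 (13.6%) had disease by supplement terms at an unadjusted p below 0.05.

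Genes that respond to glucocorticoid had a median of 0.11 over 19 genes, with 0.41 in AAC, 0.12 in INR and -0.09 in COMBO cattle. TSC22D3, a glucocorticoid-induced leucine zipper protein, was at 519, 951 and 1731 CPM in BRD cattle and at 570, 777 and 1277 CPM in healthy cattle (log2 fold change 0.26, SE 0.17), DDIT4 at 0.43 (SE 0.27) and MAP3K6 at -0.42 (SE 0.19). For haptoglobin, an acute-phase protein whose transcript HP is also present in bovine neutrophils, the values were 31.3, 78.4 and 130.5 CPM against 44.44, 97.2 and 344.5 CPM (-0.50, SE 0.30), with 2 of 14 BRD libraries above the healthy median. LRP1, which clears heme-hemopexin, was at -0.31 (SE 0.18), and the 13 genes of this list, which also holds CD163, had a median of -0.06, with 0.325 in AAC, -0.19 in INR and -0.28 in COMBO cattle. Of these 13 genes, 2 (15.4%) had disease by supplement terms at an unadjusted p below 0.05.

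Since the cattle differed in their mineral supplement, 24 genes of zinc, copper, manganese and cobalamin handling were examined. Their pooled median was -0.02, and 1 was lower at an unadjusted p below 0.05. The median was 0.035 in AAC, 0.036 in INR and -0.07 in COMBO cattle, and 5 of the 24 (20.8%) had disease by supplement terms at that p. In AAC cattle 4 of the 24 had all BRD libraries below all healthy libraries (5.24% of all genes), and 0 had all above (6.05% of all genes). TCN2, the plasma carrier of cobalamin, was at 15.2, 35.4 and 46.1 CPM in BRD cattle and at 23.491, 42.5 and 56 CPM in healthy cattle (log2 fold change -0.32, SE 0.14). SLC30A1, the zinc exporter of the plasma membrane (-0.16, SE 0.09), and ATP7A, a copper-transporting ATPase (-0.26, SE 0.15), had intervals that included 0.

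**Figure D4:**
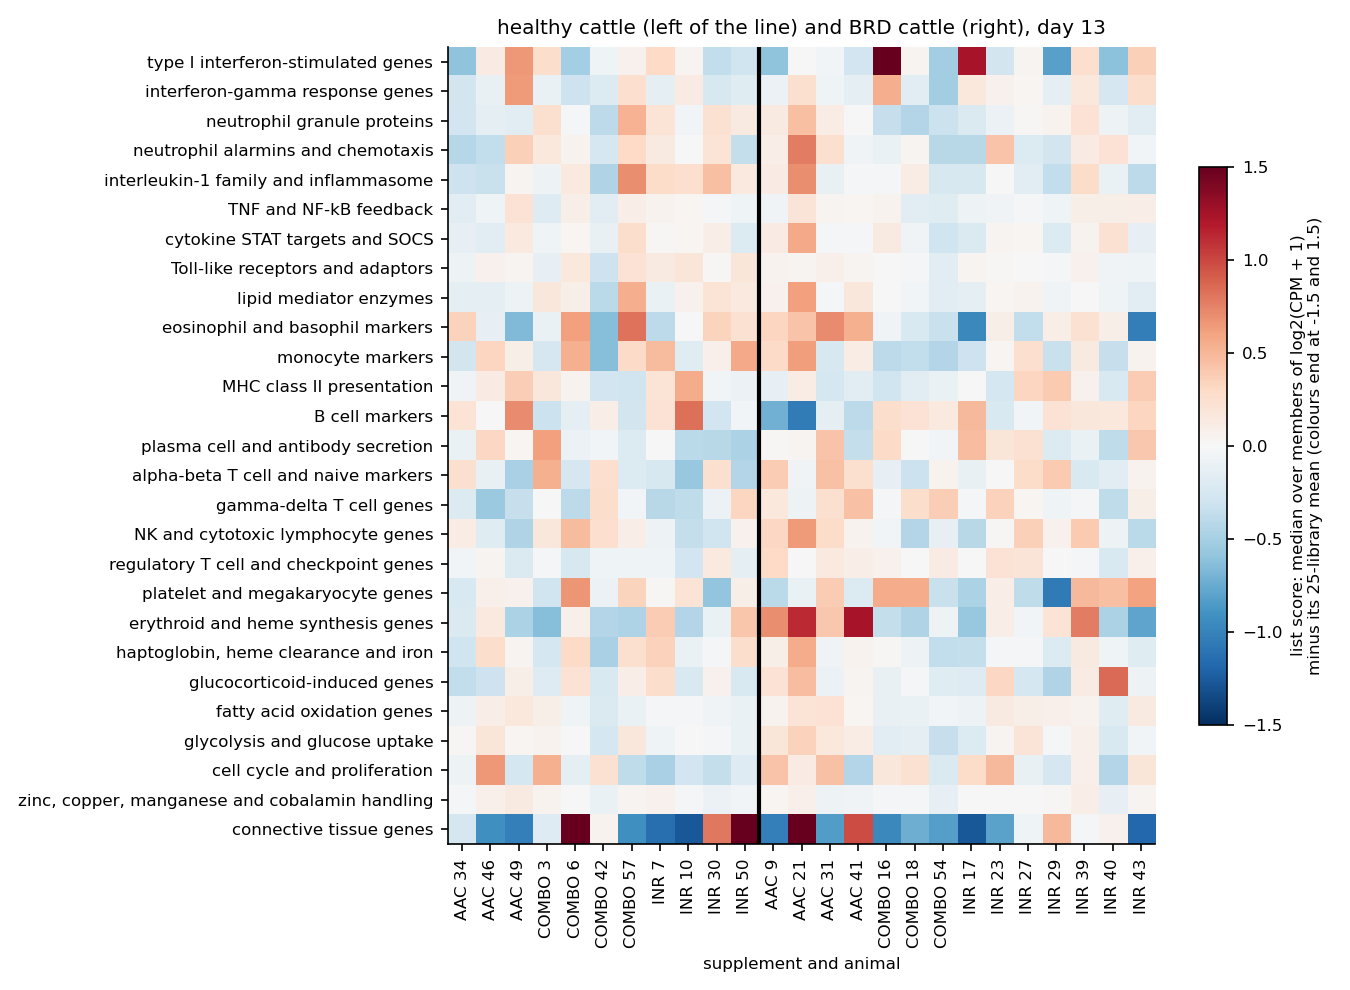
Score of each of 27 gene lists (rows) in each of the 25 day 13 libraries (columns, healthy left and BRD right of the line), where the score is the median over the list's members of log2(CPM + 1) minus the mean over the 25 libraries. No list divides the groups; BRD animals 16 and 17 are highest for interferon-stimulated genes, BRD animals 21, 9 and 41 are lowest for B cell markers, BRD animals 41 and 21 are highest for erythroid genes, and healthy animal 50 and BRD animal 21 for connective tissue genes.

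Whether the BRD to healthy difference was the same under each supplement was tested with the disease by supplement terms. There were 0 genes called of 16174 (0%, smallest FDR 0.138), while 2465 genes, or 15.2%, had an unadjusted p below 0.05 (edgeR). Without healthy animal 50 the terms called 2 genes, with 12.7% at that p, and without BRD animals 21 and 41 they called 0, with 10.8%. The lists with the most such members were B cell markers, with 12 of 20, NK and cytotoxic lymphocyte genes, with 11 of 24, and connective tissue genes, with 11 of 12. With all supplements pooled, the B cell and NK lists had medians of -0.14 and 0.11 with 2 of 20 and 0 of 24 members at an unadjusted p below 0.05, and the medians of AAC and COMBO cattle lay on opposite sides of 0.

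For B cells, the median log2 fold change of the 20 markers was -0.88 in AAC cattle, -0.02 in INR cattle and 0.38 in COMBO cattle. MS4A1, the surface antigen CD20, was at 302.8, 378.6, 483.4 and 483.9 CPM in the 4 AAC BRD animals and at 598.0, 631.1 and 1033 CPM in the 3 healthy ones, whereas in COMBO cattle it was at 786.9, 854.2 and 946.3 CPM in the BRD and at 404.7, 566.6, 571.7 and 591.2 CPM in the healthy animals. Within AAC cattle and within COMBO cattle the groups did not overlap, in opposite directions, and in INR cattle they overlapped. The log2 fold changes were -0.87 (SE 0.23), 0.69 (SE 0.23) and, in INR cattle, -0.12 (SE 0.19), and the terms had an unadjusted p of 0.000323 and an FDR of 0.226 (edgeR).

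EBF1, a transcription factor of the B lineage, was at -1.07 (SE 0.24) in AAC and at 0.62 (SE 0.24) in COMBO cattle. In AAC cattle 10 of the 20 B cell markers had all BRD libraries below all healthy libraries, which 5.24% of all genes had, and in COMBO cattle 5 of the 20 had all BRD libraries above, which 4.84% of all genes had. The COMBO differences, here and in the lists below, cannot be told apart from those between pens 5 and 6. The same holds for any drench given at treatment for illness before day 13. FCRL5 (-0.25, SE 0.12) and FCRLA (-0.37, SE 0.22), receptor-like proteins of B cells, had the smallest p of the pooled fit after BLK.

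The 24 NK and cytotoxic genes went the other way, with medians of 0.51 in AAC, 0.15 in INR and -0.48 in COMBO cattle. NKG7, a granule membrane protein of cytotoxic cells, was at 38.4 to 57.8 CPM in AAC BRD and at 20.5 to 37.31 CPM in AAC healthy animals, but at 17.2 to 30.4 CPM in COMBO BRD and at 38.1 to 56.3 CPM in COMBO healthy animals. In AAC cattle 7 of the 24 genes had all BRD libraries above all healthy libraries (6.05% of all genes), and in COMBO cattle 6 had all BRD libraries below (3.77% of all genes). Pooled over supplements, CST7 (0.24, SE 0.14), TBX21, the transcription factor T-bet (-0.23, SE 0.15), and GZMM (0.33, SE 0.24) had the smallest p of the list.

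Of the 27 erythroid and heme synthesis genes, 21 had a fold change above 0 in the pooled fit, with a median of 0.28, and the median was 1.74 in AAC cattle, -0.08 in INR and -0.15 in COMBO cattle. Disease by supplement terms had an unadjusted p below 0.05 for 8 of the 27 (29.6%). ALAS2, the first enzyme of heme synthesis in red cell precursors, was at 174, 343, 930 and 1046 CPM in AAC BRD animals and at 5.6, 44 and 71.40 CPM in AAC healthy animals. HBA1, an alpha globin gene, was at 7634 to 57810 CPM against 83.5 to 5050 CPM, and 16 of the 27 genes had all AAC BRD libraries above all AAC healthy libraries (6.05% of all genes). Pooled, GYPB, a glycophorin of the red cell surface, was at 1.02 (SE 0.53). Counts of near-identical globin genes cannot be assigned with certainty.

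In BRD animals 21 and 41 the globin genes took a large share of the library. Without these 2 animals the pooled median of the erythroid list was 0.12 and that of the B cell list was -0.03. By library, the AAC BRD and healthy scores did not overlap for the B cell list (-1.052 to -0.135 against -0.003 to 0.705) or the erythroid list (0.399 to 1.233 against -0.474 to 0.147), where the score is the list's median log2(CPM + 1) less the mean over the 25 libraries. Nor did they overlap for the neutrophil granule (0.004 to 0.454 against -0.291 to -0.13), lipid mediator (-0.023 to 0.61 against -0.149 to -0.074) and gamma-delta T cell lists (-0.076 to 0.444 against -0.552 to -0.205). The groups hold only 4 and 3 libraries, and how often list scores of so few libraries part by chance was not tested. In the remaining lists the AAC scores overlapped, as for the NK list (0.048 to 0.64 against -0.454 to 0.115). In COMBO cattle the BRD and healthy scores did not overlap for the B cell list (0.15 to 0.263 against -0.323 to 0.104). The same held for the NK list (-0.442 to -0.044 against 0.094 to 0.469). It also held for the regulatory T cell and checkpoint list (0.01 to 0.123 against -0.241 to -0.018). In the other lists the COMBO scores overlapped. The part of cell proportions in these values was not tested. The plasma cell and antibody secretion list had a pooled median of 0.13 over 15 genes, and medians of 0.40 in INR, -0.15 in AAC and -0.085 in COMBO cattle, with PIGR at 0.34 (SE 0.22), PRDM1, which drives plasma cell formation, at 0.15 (SE 0.14) and EAF2 at 0.20 (SE 0.20). Disease by supplement terms had an unadjusted p below 0.05 for 3 of the 15 (20%).

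**Figure D5:**
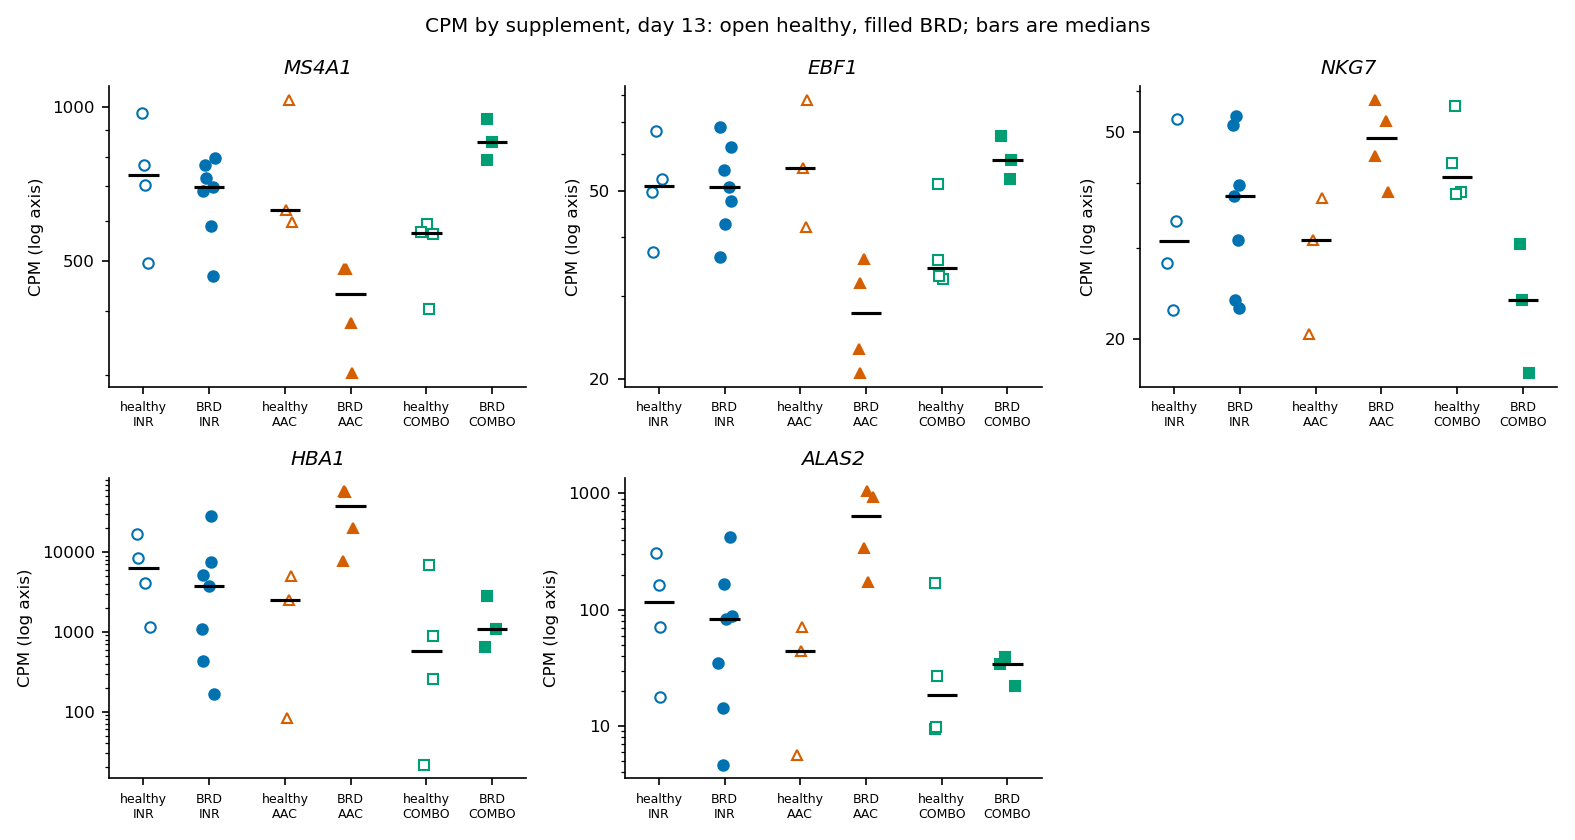
CPM on a log axis by supplement in healthy (open) and BRD cattle (filled), with bars at the medians, for the B cell genes MS4A1 and EBF1, the cytotoxic gene NKG7 and the erythroid genes HBA1 and ALAS2. In AAC cattle the BRD libraries lie below the healthy ones for both B cell genes and above them for the other 3, in COMBO cattle the B cell genes and NKG7 lie the other way round, and in INR cattle the groups overlap for all 5.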

How the data were processed

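Whole blood was sampled into RNA-preserving tubes, and poly(A) RNA was sequenced as stranded paired-end libraries. The deposited table holds counts of reads per gene and library, not normalized, for 32395 genes and 129 libraries. Per the submitters' processing notes the authors used FastQC 0.11.9, Trimmomatic 0.39, HISAT2 2.1.1, StringTie 2.2.0 and edgeR 3.36.0. They left out a library they judged unfit, so AAC animal 48 has no day 13 value here.

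The 25 day 13 libraries were filtered with edgeR's filterByExpr by disease group, scaled by TMM and fitted in edgeR 4.0.16 (R 4.3.3) with disease and supplement as terms and a common dispersion, tested by quasi-likelihood, and called at FDR below 0.10. CPM is the count per 1000000 counts of the TMM-scaled library. The disease by supplement terms were tested jointly, and disease by day with animal as a block. Replicate numbers are animal numbers, each animal has 1 library on day 13, and the other days come from the same animals. limma 3.58.1 (voom) and DESeq2 1.42.0 were alternatives, and the edgeR fit was tested on simulated data. Named genes were the 10 of smallest p in each direction among genes with a symbol (unnamed loci left out) and the 3 of smallest p in each list. CPM by supplement, marker genes and genes tied to a list result were added after their values were seen. Removal of globin genes and the fits without BRD animals 21 and 41 were likewise added afterwards. So were list medians and disease by supplement terms without animals picked by their values. The comparison and the gene lists were chosen with earlier results of these data known. Intervals are 95%. Figures were drawn with matplotlib 3.10.9. No gene sequences were used. Some genes that the naming rule would take are not reported here.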

Additional observations from a re-analysis of the deposited data

Results flagged for a closer look

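Within groups of 4 to 7 libraries of 1 disease state and supplement, 11 genes and the share of counts in the 10 most abundant genes were examined. Of the 48 groups, 14 had a library far from the others by Dixon's ratio, all of them for genes. Its chance rate of about 1 in 20 assumes normally distributed values. The ratio was taken on CPM without a log, for genes picked after their values were seen, so the 14 cannot be set against that rate. The groups share libraries and the genes of a list vary together, and groups of 3 were not examined.

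Connective tissue and erythroid genes gave 8 of them. COL1A1 was at 2546 CPM in healthy INR animal 50 (the nearest of its group 31.8 CPM), at 1258 CPM in BRD AAC animal 21 (34 CPM), at 114.9 CPM in healthy COMBO animal 6 (18.9 CPM) and at 41.2 CPM in BRD INR animal 29 (17 CPM). HBA1 was at 28076 CPM in BRD INR animal 39 (nearest 7570 CPM) and at 6807 CPM in healthy COMBO animal 6 (897 CPM). ALAS2 was at 424 CPM and 169 CPM in those same 2 animals, against 165 and 27 CPM in the nearest.

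Among immune genes, MX1 was at 2620 CPM in BRD INR animal 17 (nearest 911 CPM), and IFIT3 was at 150 CPM in BRD AAC animal 21 (80.8 CPM). IFNGR2 was at 63 CPM in healthy INR animal 10 (6.4 CPM), and CD163 was at 99.3 CPM in healthy COMBO animal 57 (52.1 CPM). Of the B cell genes, MS4A1 was low in healthy COMBO animal 3, at 405 CPM (567 CPM), and EBF1 was high in healthy COMBO animal 42, at 51.9 CPM (35.7 CPM), next to a lowest COMBO BRD value of 53.2 CPM.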

How the results depend on the processing

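The call of 0 genes held under RLE and upper-quartile scaling, limma-voom, trended and tagwise dispersion, robust fitting, no filter, a stricter filter, no covariate, AAC or COMBO cattle alone, an FDR of 0.05, removal of globin genes, and without BRD animals 21 and 41. DESeq2 called 2 genes, MFSD2B and PLXNA1, INR cattle alone gave 1 (BTF3L4, FDR 0.032, edgeR), and pens holding both groups, with pen as a factor, gave 1 (IGFBP1, FDR 0.0712, edgeR). That pen fit left out all COMBO cattle and the INR cattle of pen 7. At an unadjusted p below 0.05 the pen fit had 1514 genes (9.43%), against 3.31% with all libraries and 11.1%, 9.08% and 6.1% in AAC, INR and COMBO cattle alone. Leaving out each animal in turn gave 0 to 0 calls, and 418 to 845 genes at an unadjusted p below 0.05, with a smallest FDR of 0.132 without healthy animal 34. The disease by supplement terms called 2 genes without healthy animal 50 (ENKUR and 1 unnamed RNA, smallest FDR 0.068). The libraries of all 5 days in 1 fit with animal as the replicate block called 0 genes (smallest FDR 0.342, consensus correlation 0.33), and without the block also 0 (0.161). For disease on day 13 itself, where each animal has 1 library, no pairing applies.

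Named genes changed sign in few settings, mostly within 1 supplement, where 3 to 7 animals stand on each side, and the cause was not tested. In AAC cattle alone the log2 fold changes were 0.134 for ACSL1, 1.819 for ALOX15, 0.718 for CD1E, 4.175 for COL1A1, 5.195 for COL3A1, 0.036 for CTSS, -0.159 for EAF2, -0.375 for HERC6, -0.058 for IFIT3, 0.687 for IL1R1, 0.373 for IL5RA, 0.019 for LPL, 0.197 for LRP1, 0.119 for MAP3K6, 0.078 for NLRC4, 3.180 for POSTN, 4.112 for SPARC and 0.473 for TNFAIP2. In COMBO cattle alone they were -0.188 for ALDOA, -0.001 for ANGPTL4, -0.082 for CD247, -0.131 for CISH, -0.274 for CST7, -0.430 for DDIT4, -0.102 for EAF2, 0.250 for FCRL5, 0.360 for FCRLA, -0.244 for GYPB, -0.399 for GZMM, -0.033 for HRH4, -0.159 for IFNGR2, -0.061 for MCM4, -0.093 for PCNA, -0.078 for PFKP, -0.115 for PRDM1, 0.090 for SLC30A1, 0.000 for TNFAIP6 and -0.189 for TRAF1. In pens holding both groups they were 0.008 for ACSL1, 0.029 for ALOX15, 3.431 for COL1A1, 3.803 for COL3A1, -0.038 for EAF2, -0.151 for GBP4, -0.284 for HERC6, 0.072 for IL1R1 and 2.605 for SPARC. HRH4 was at -0.095 in INR cattle alone, ALOX15 at 0.021 under limma-voom, and COL1A1 lay between -4.766 and 0.144 over the fits that left out 1 animal, the latter without healthy animal 50, and was at -0.035 under limma-voom, -0.323 with all 5 days and the animal block and -1.351 with no covariate.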
